A study of Mus musculus with 9 samples.

Results

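The 39 genes of the 4 Hox clusters were compared between hindlimb muscle and heart of mice that had undergone sham surgery. Members were the rows of the deposited quadriceps and heart table whose gene name was Hox, a cluster letter from a to d and a paralog number, which gave 39 of 24537 gene names and 46 of 35745 transcripts. The series holds 9 RNA sequencing libraries, of which the 3 of sham heart and the 3 of sham quadriceps were used. The other 3, from quadriceps after transverse aortic constriction (TAC, a pressure overload of the left ventricle), were deposited in a table of 587 selected genes that contains 0 Hox genes, so the effect of TAC on them was not analysed here. Both groups were C57Bl6 mice, which the study's methods give as male C57Bl/6JCrl mice, operated on at 8 weeks of age without constriction of the aorta and sampled 12 weeks later. The study set quadriceps against adult heart in order to find transcripts more abundant in skeletal muscle. The labels give separate samples but do not say that each came from its own animal, so p-values measure the spread between these samples, and 3 libraries against 3 cannot give a two-sided exact permutation p below 0.1.

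Hox genes encode homeodomain transcription factors that lie in clusters in mammals, and genes of like position in the different clusters, the paralogs, share a number. Within a cluster, low numbers are generally expressed from anterior levels of the embryonic axis and high numbers from posterior levels, an order called collinearity. The hindlimb forms at a posterior level and the HoxA and HoxD genes of high number pattern its long axis, whereas the heart takes in cells from anterior levels, where genes of low number act in the second heart field and neural crest. Adult tissues and the cells cultured from them often keep part of this positional pattern.

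Deposited counts summed to between 23383452 and 38382751 per library. Counts per 1000000 (CPM) were scaled with edgeR's trimmed mean of M-values (TMM), RPKM are the authors' counts divided by transcript length in kilobases and by library total in units of 1000000 reads, and each gene was represented by its transcript with the highest count. The labelled tissues matched their markers: summed CPM of 8 cardiomyocyte genes was 38900 to 41230 in heart and 236 to 386 in quadriceps. That of 9 skeletal fiber genes was 1148 to 1329 in heart and 77720 to 107100 in quadriceps. Ckm and Acta1, at means of 954 and 260 CPM, made up most of the heart sum of the fiber genes. Adipocyte markers separated the tissues and also the quadriceps libraries, with 7 of 7 higher in quadriceps. Their summed CPM was 1.30 to 5.48 in heart against 1795, 547 and 536 in quadriceps 1, 2 and 3. Most of the quadriceps sums was Car3 alone, at 1660, 491 and 518 CPM. The other markers were each lower in quadriceps 3 than in quadriceps 2, with Adipoq at 43.5, 17.8 and 5.31 CPM. In bulk tissue, fewer cells of a type and less RNA per cell cannot be told apart.

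Hox transcripts were far more abundant in quadriceps than in heart, and the excess lay mainly in HoxC and in paralog groups 9 and 10. The summed RPKM of the 39 genes was 2.03, 2.89 and 2.44 in heart against 62.6, 70.4 and 65.0 in quadriceps, with no overlap. In counts this was 163, 239 and 185 in heart against 4127, 4616 and 3012 in quadriceps. Of the 39 genes, 27 had more than 5 counts in at least 2 of the 6 libraries and entered the test. At an adjusted p under 0.05 (edgeR's quasi-likelihood test, Benjamini-Hochberg across 24280 transcripts), 25 of these 27 were higher in quadriceps, against 32.2% of all tested transcripts. The same test called 0 lower, against 34.4% of all tested transcripts, with 0 at an unadjusted p under 0.05 and 0 by DESeq2. In TMM-scaled CPM, the 25 genes were also those whose 3 quadriceps values all exceeded the 3 heart values, a pattern seen in 34.2% of tested transcripts. On that scale, for none of the 27 did they all lie below, against 38.3%. In RPKM, the tissues overlapped for Hoxb3 and Hoxb5, and all quadriceps values of Hoxb2 and Hoxb4 lay below those of heart.

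The count of 25 describes the tested genes and is not support for a direction, because 19 of the 27 would not have passed the filter on their heart counts and entered through quadriceps. Of the 8 that passed on heart counts as well (Hoxa3, Hoxa4, Hoxa5, Hoxb2, Hoxb3, Hoxb4, Hoxd4 and Hoxd8), 6 were higher in quadriceps. The median log2 fold change of the 27 was 4.19, or 4.10 with genes at 0 in heart set to their bound, and that of all tested transcripts was -0.06. With library totals in place of TMM the median of all transcripts moved to -0.80, transcripts called higher and lower went from 7828 and 8354 to 3240 and 15203, and 23 Hox genes were higher and 1, Hoxb4, was lower. Folds given here are on the TMM scale, so RPKM, which rests on library totals, places quadriceps lower relative to heart. Without quadriceps 1, the library rich in adipocyte markers, 22 of 24 tested Hox genes were higher.

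**Figure D1:**
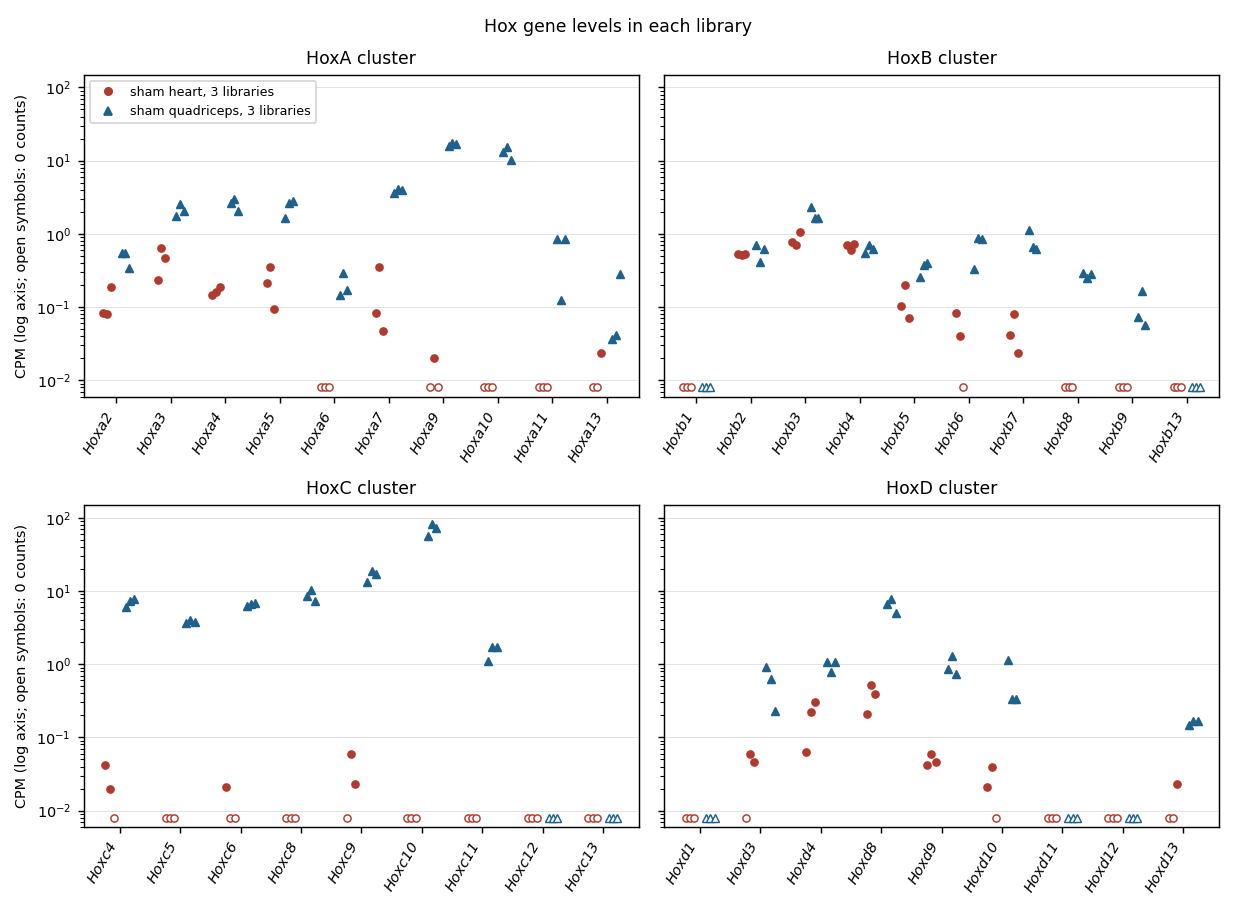
CPM (TMM scale, log axis) of Hox genes in each of 3 sham heart libraries (circles) and 3 sham quadriceps libraries (triangles), 1 panel per cluster, ordered by paralog number. Open symbols mark 0 counts and are drawn at the foot of the axis. HoxC genes 4 to 11 sit far above heart in quadriceps, whereas Hoxb2 and Hoxb4 overlap between the tissues.

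The HoxC cluster (chromosome 15, plus strand, mm10) showed the widest separation. Of its 9 genes, 7 were tested and 7 were higher, and their median log2 fold change was 9.28, falling to 8.69 once genes at 0 in heart were set to their bound. Across the whole cluster the heart libraries held 3, 4 and 1 counts, against 2574, 3120 and 2090 for quadriceps. None of the 7 tested genes would have passed the filter on heart counts.

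Hoxc10, a posterior gene used as a marker of hindlimb identity, was the most abundant Hox gene in quadriceps. It had 0 counts in each heart library and 1521, 1961 and 1299 in quadriceps. That was at least 3260-fold higher, taking 3 counts over the 3 heart libraries (0.0213 CPM) as the limit that a count of 0 allows, with an edgeR adjusted p of 8.76e-08. Such limits and the intervals given for ratios cover counting error only. Among 86 gene names that had a tested transcript with 0 heart counts, Hoxc10 ranked 5 by its quadriceps counts, Hoxa10 ranked 8, Hoxc8 ranked 10 and Hoxc5 ranked 21. Its annotated model (chromosome 15, 102966796 to 102971893) shares 8.70% of its exon bases with a long Hoxc5 model on the same strand.

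Hoxc9, which acts in thoracic patterning and in motor neuron columns, had 0, 3 and 1 counts in heart against 356, 442 and 302 in quadriceps. The log2 fold change was 8.98 ± 0.35 (SE, n = 3 per group; edgeR adjusted p = 3.62e-08), and 10.08 without heart 2. Hoxc8 had 0 counts in every heart library and 233, 243 and 130 in quadriceps, at least 414-fold higher (edgeR adjusted p = 4.02e-07). Each quadriceps library exceeded each heart library for both genes.

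The central HoxC genes gave the same picture at lower counts. Hoxc6 had 1, 0 and 0 counts in heart against 171, 160 and 123 in quadriceps, a ratio of CPM of 929 (95% counting interval 166 to 36800; edgeR adjusted p = 3.49e-08) that rests on the 1 count of heart 1. Hoxc4 had 2, 1 and 0 against 165, 176 and 139, a ratio of 328 (111 to 1590; edgeR adjusted p = 7.16e-08), and its fitted log2 fold change went from 8.15 to 8.92 without heart 1. Hoxc5 had 0 in heart against 98, 97 and 67, at least 179-fold higher (edgeR adjusted p = 8.8e-07). These 3 genes are neighbours, and their quadriceps CPM varied little between libraries, from 6.07 to 7.86 for Hoxc4, 3.60 to 4.05 for Hoxc5 and 6.29 to 6.95 for Hoxc6.

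Expression fell away at the posterior end of the cluster. Hoxc11 had 0 counts in heart and 30, 41 and 30 in quadriceps, at least 68.9-fold higher (edgeR adjusted p = 1.83e-05). Hoxc12 and Hoxc13, the latter known from hair and nail formation, were at 0 in all 6 libraries, which allows up to 0.0436 CPM in quadriceps over the group. The step from Hoxc10 to Hoxc11 was from 28.2 ± 3.45 to 1.26 ± 0.219 RPKM (mean ± SD, n = 3).

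The HoxA cluster (chromosome 6, minus strand) was higher in quadriceps for 8 of its 8 tested genes out of 11. Their median log2 fold change was 4.23. Of these 8, 5 entered the test through quadriceps alone, and the 3 that passed on heart counts were higher. The posterior HoxA genes differed most. Hoxa9, a posterior gene also known from hematopoiesis, had 0, 1 and 0 counts in heart against 439, 420 and 296 in quadriceps, a ratio of 2360 (424 to 93500; edgeR adjusted p = 4.12e-09) that rests on the 1 count of heart 2. Hoxa10, which patterns the upper part of the limb, had 0 in heart and 357, 368 and 178 in quadriceps, at least 616-fold higher (edgeR adjusted p = 4.55e-07). Both were absent or nearly so from every heart library and abundant in every quadriceps library.

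Beyond Hoxa10 the levels dropped. Hoxa11, which patterns the middle part of the limb, had 0 in heart and 23, 3 and 15 in quadriceps, at least 28.0-fold higher (edgeR adjusted p = 0.00172), and quadriceps 2 stood below the others. Hoxa13, which acts in the hand and foot, had 0, 0 and 1 against 1, 1 and 5 and was not tested. In exon bases, 35.0% of the Hoxa11 model lies opposite the antisense gene Hoxa11os, and the strand setting of the counting is not stated, so reads of that pair cannot be told apart. Hoxa11os itself had 1, 0 and 0 counts in heart against 13, 2 and 4 in quadriceps.

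The bases upstream of these 3 neighbours are shown because their quadriceps counts step down across them. They are the 250 bases before the annotated RefSeq start (GRCm38.p6, minus strand, 5′ to 3′), at chr6:52240855-52241104, chr6:52245811-52246060 and chr6:52260881-52261130. Capitals mark CG dinucleotides, the sites of DNA methylation and of CpG islands.
Hoxa10: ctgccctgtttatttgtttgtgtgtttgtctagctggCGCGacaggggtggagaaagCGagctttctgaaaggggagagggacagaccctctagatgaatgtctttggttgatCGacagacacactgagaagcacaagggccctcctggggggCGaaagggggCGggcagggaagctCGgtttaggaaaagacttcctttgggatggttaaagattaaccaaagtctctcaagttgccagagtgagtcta
Hoxa11: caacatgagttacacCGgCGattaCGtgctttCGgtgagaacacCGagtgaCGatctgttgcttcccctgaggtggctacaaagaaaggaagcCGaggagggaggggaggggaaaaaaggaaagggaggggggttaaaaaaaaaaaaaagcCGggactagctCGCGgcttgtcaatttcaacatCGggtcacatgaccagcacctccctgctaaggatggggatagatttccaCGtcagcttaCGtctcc
Hoxa13: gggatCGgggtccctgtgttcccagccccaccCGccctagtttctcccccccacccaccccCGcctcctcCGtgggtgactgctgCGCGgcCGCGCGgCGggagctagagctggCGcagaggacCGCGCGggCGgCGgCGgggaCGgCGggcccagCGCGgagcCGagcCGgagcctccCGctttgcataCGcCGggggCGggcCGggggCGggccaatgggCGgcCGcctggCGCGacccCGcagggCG
The windows held 7, 13 and 35 CG dinucleotides, and a second window listed for Hoxa10 (chr6:52234940-52235189), before a start inside its model, held 20. Among 32851 windows of the same length before annotated starts of all genes, 46.3%, 31.5% and 2.97% held at least as many, and the median was 6. The 24 windows listed for 22 of the 39 Hox genes had a median of 12.5. Of HoxC only Hoxc4 had a window, so these values do not cover Hoxc10 or the rest of that cluster. The motif TGATNNAT, which HOX proteins bind together with PBX proteins, was searched on both strands and occurred in 4 of the 24 Hox windows (16.7%), at Hoxa2, Hoxb1, Hoxb8 and Hoxd11, and in 7.68% of all windows. A match is a description of the letters.

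The other HoxA genes were at low counts or at 0 in heart. Hoxa7 had 4, 18 and 2 counts in heart against 99, 99 and 71 in quadriceps, with a log2 fold change of 4.51 ± 0.43 (SE; edgeR adjusted p = 1.38e-05). Heart 2 held most of its heart counts, and without heart 2 the log2 fold change was 5.81. Hoxa4 rose by 3.95 ± 0.27, Hoxa5, a gene of lung and axial patterning, by 3.37 ± 0.39 and Hoxa2, a gene of the hindbrain and second branchial arch, by 2.06 ± 0.45 on the log2 scale, with edgeR adjusted p from 1.47e-06 to 0.00287. Hoxa6 had 0 in heart and 4, 7 and 3 in quadriceps and did not reach the filter.

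Hoxa3, which acts in the thymus, parathyroid and pharyngeal arches, had the highest heart counts of the cluster. It had 11, 32 and 20 counts in heart against 48, 61 and 36 in quadriceps, a log2 fold change of 2.24 ± 0.33 (SE; edgeR adjusted p = 0.000266). Of the Hoxa3 exon bases 25.5% lie opposite antisense genes, as do 28.8% of those of Hoxa7 and 16.0% of those of Hoxa4.

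The HoxD cluster (chromosome 2, plus strand) had 5 of 9 genes tested and 5 higher, with a median log2 fold change of 4.10. Of these 5, 3 entered the test through quadriceps alone, and the 2 that passed on heart counts were higher. Hoxd8 led the cluster in both tissues. It had 10, 26 and 17 counts in heart against 178, 187 and 88 in quadriceps, a log2 fold change of 4.10 ± 0.29 (SE; edgeR adjusted p = 1.93e-06). Hoxd9, which with its paralogs acts in the upper limb segment, had 2, 3 and 2 against 23, 31 and 13, a log2 fold change of 4.19 ± 0.43 (edgeR adjusted p = 2.22e-05). The quadriceps libraries lay above the heart libraries for both genes.

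Hoxd10 and Hoxd3 differed between the quadriceps libraries. Hoxd10, a gene of hindlimb motor innervation, had 1, 2 and 0 counts in heart against 31, 8 and 6 in quadriceps, a ratio of 30.7 (9.86 to 154; edgeR adjusted p = 0.000728). Hoxd3 had 0, 3 and 2 against 25, 15 and 4, a log2 fold change of 4.0 ± 0.72 (edgeR adjusted p = 0.00092). Both were highest in quadriceps 1, which also had the highest adipocyte markers (Adipoq 1183 counts against 425 and 94), and the part of those cells in the result was not tested. The fitted log2 fold change of Hoxd10, 4.68, was 3.81 without quadriceps 1 (edgeR adjusted p = 0.00207) and 5.41 without heart 2, and Hoxd3 did not reach the filter.

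Hoxd4 had 3, 11 and 13 counts in heart against 29, 19 and 19 in quadriceps, a log2 fold change of 2.32 ± 0.44 (SE; edgeR adjusted p = 0.00125). Reads of Hoxd3 and Hoxd4 are uncertain, because 88.0% of the Hoxd3 exon bases and 45.1% of the Hoxd4 exon bases are shared with other genes on the same strand. At the posterior end, Hoxd11 and Hoxd12 were at 0 in all 6 libraries. Hoxd13, a gene of digit formation, had 0, 0 and 1 against 4, 4 and 3 and was not tested. Hoxd1, at the other end, was at 0 in all 6 libraries.

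HoxB (chromosome 11, plus strand) was the cluster with the smallest difference. Of its 10 genes, 7 were tested and 5 were higher, with a median log2 fold change of 1.38. Of these 7, 4 entered the test through quadriceps alone, and 1 of the 3 that passed on heart counts was higher. The summed counts of the cluster were 107, 107 and 104 in heart and 154, 123 and 90 in quadriceps. With library totals 3 were higher and 1 was lower.

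Hoxb2 and Hoxb4 were the 2 tested Hox genes with no call. Hoxb4, a gene of the hindbrain boundary and of blood stem cells, had 34, 30 and 31 counts in heart against 15, 17 and 11 in quadriceps, a log2 fold change of -0.11 ± 0.26 (SE; edgeR adjusted p = 0.722) that became -0.86 with library totals (edgeR adjusted p = 0.0106). Hoxb2 had 25, 26 and 23 against 19, 10 and 11, a log2 fold change of 0.14 ± 0.29 (edgeR adjusted p = 0.682) that became -0.59 with library totals (edgeR adjusted p = 0.103). Their raw counts were lower in every quadriceps library, and their TMM-scaled values overlapped between the tissues.

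Hoxb3 and Hoxb5 were higher by small amounts. Hoxb3 had 37, 35 and 46 counts in heart against 63, 40 and 29 in quadriceps, a log2 fold change of 1.16 ± 0.25 (SE; edgeR adjusted p = 0.00233) that fell to 0.42 with library totals (edgeR adjusted p = 0.184). Hoxb5 rose by 1.38 ± 0.49 (edgeR adjusted p = 0.0302), and its call was lost with library totals (0.64, edgeR adjusted p = 0.242), with DESeq2 (adjusted p = 0.0641) and in 4 of the fits without 1 library. Of the exon bases, 70.5% for Hoxb3 and 58.5% for Hoxb2 lie opposite the antisense gene Hoxb3os.

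Higher-numbered HoxB genes were rarer in heart. Hoxb7 had 2, 4 and 1 counts in heart against 31, 16 and 11 in quadriceps, a log2 fold change of 3.97 ± 0.49 (SE; edgeR adjusted p = 8.07e-05). Hoxb6 rose by 3.87 ± 0.68 (edgeR adjusted p = 0.000801), or by 4.73 without heart 1, and Hoxb8 had 0 in heart against 8, 6 and 5, at least 13-fold higher (edgeR adjusted p = 0.000562). Hoxb9 had 0 against 2, 4 and 1 and was not tested, and Hoxb1 and Hoxb13 were at 0 in all 6 libraries.

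Levels per length placed different genes at the top in each tissue. In quadriceps the order by RPKM (mean ± SD, n = 3) was Hoxc10 at 28.2 ± 3.45, Hoxc9 at 7.24 ± 0.772, Hoxa10 at 4.59 ± 0.92, Hoxa9 at 4.01 ± 0.135, Hoxc6 at 3.22 ± 0.145, Hoxc8 at 2.83 ± 0.416, Hoxc4 at 2.75 ± 0.23 and Hoxd8 at 2.43 ± 0.511. The libraries of Hoxc10 and Hoxc9, and of Hoxc9 and Hoxa10, did not overlap. Hoxa10 and Hoxa9 overlapped, as did neighbours from Hoxc6 to Hoxd8. In heart the order was Hoxb2 at 0.420 ± 0.00673, Hoxb4 at 0.343 ± 0.033, Hoxb3 at 0.325 ± 0.0752, Hoxd8 at 0.238 ± 0.1 and Hoxa3 at 0.228 ± 0.106 RPKM. Hoxb2 lay above Hoxb4 in all libraries, and each later neighbour in this list overlapped the one before it.

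The make-up of the Hox transcripts differed between the tissues. HoxC gave 66.7% to 73.5% of the summed Hox RPKM in quadriceps and 0.723% to 2.19% in heart, and Hoxc10 by itself gave 39.0%, 44.2% and 44.8% in the quadriceps libraries. HoxB gave 43.3% to 62.4% in heart and 2.66% to 3.67% in quadriceps. HoxA took similar shares, 25.3% to 36.1% in heart and 19.4% to 23.0% in quadriceps, and HoxD took 10.1% to 19.2% and 4.12% to 6.68%. The ranges of the 2 tissues did not overlap for any of the 4 clusters.

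**Figure D2:**
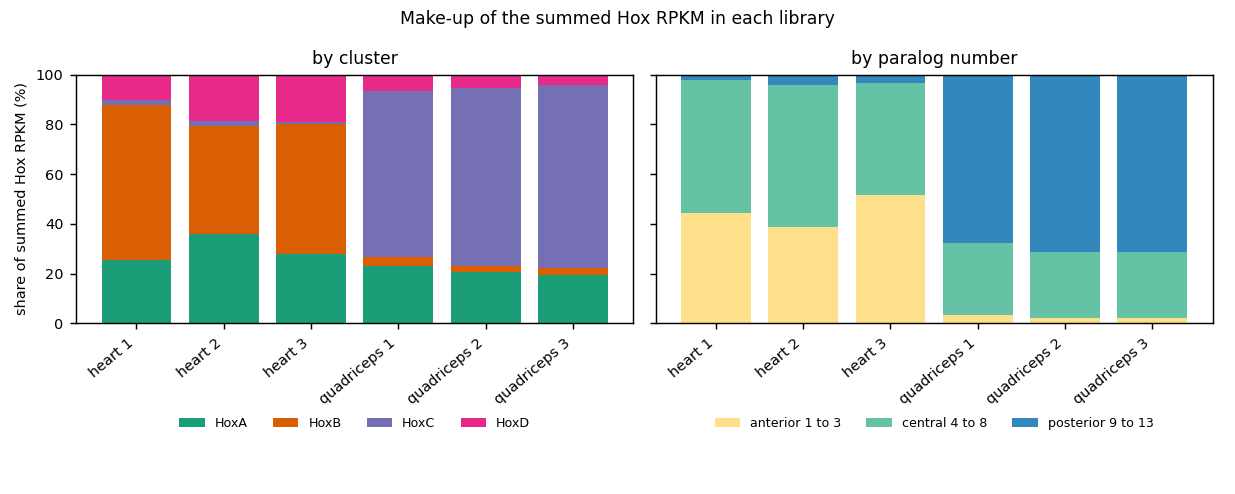
Share of the summed Hox RPKM (%) in each of the 3 heart and 3 quadriceps libraries, by cluster (left) and by paralog number (right), with each bar adding to the whole. HoxB takes 43.3% to 62.4% in heart, and HoxC takes 66.7% to 73.5% in quadriceps, where genes 9 to 13 take 67.5% to 71.4%.

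By paralog number, anterior genes (1 to 3) gave 38.8% to 51.6% of the Hox RPKM in heart and 2.34% to 3.36% in quadriceps. Central genes (4 to 8) gave 45.0% to 57.1% and 26.2% to 29.1%. Posterior genes (9 to 13) gave 1.99% to 4.12% and 67.5% to 71.4%. The 16 posterior genes together had 3, 9 and 5 counts in heart against 2787, 3283 and 2148 in quadriceps, or 0.119 ± 0.058 and 120 ± 17.4 CPM (mean ± SD, n = 3).

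The size of the difference is given by number as a description. Of 5 tested anterior genes 4 were higher, with a median log2 fold change of 2.06. Of 14 central genes 13 were higher, with a median of 4.04. Of 8 posterior genes 8 were higher, with a median of 8.85, or 7.54 with genes at 0 in heart at their bound. All 8 of these posterior genes entered the test through quadriceps, as did 9 of the 14 central and 2 of the 5 anterior genes, so the filter itself favoured high values at high numbers.

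**Figure D3:**
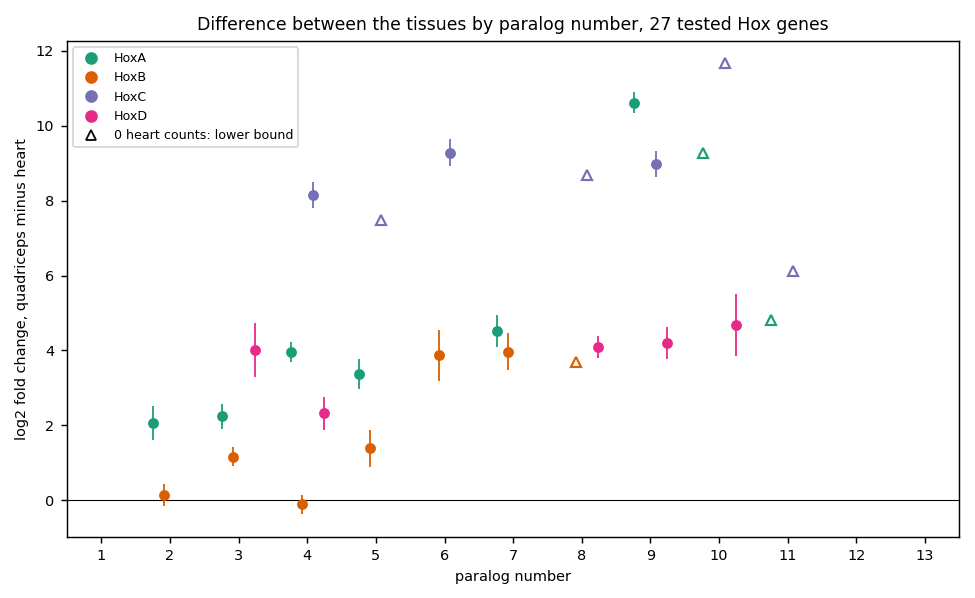
Log2 fold change (quadriceps minus heart, TMM scale) of the 27 tested Hox genes against paralog number, coloured by cluster. Circles are fitted values with SE from 3 libraries per group, which for genes with 1 to 3 heart counts rest on those counts, and open triangles are lower bounds for genes at 0 in heart. HoxC values lie above 6 at every tested number, and Hoxb2 and Hoxb4 lie near 0.

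Paralogs of the same number differed from each other. Of the 4 genes numbered 4, Hoxc4 had a quadriceps to heart ratio of 328 (111 to 1590), Hoxa4 a fitted fold of 15.4 and Hoxd4 of 4.99, while that of Hoxb4 was 0.927. Of the 3 tested genes numbered 9, Hoxa9 had a ratio of 2360 (424 to 93500), Hoxc9 a fitted fold of 507 and Hoxd9 of 18.2. Paralog numbers 12 and 13 had no tested gene. On the TMM scale no paralog group had members called in opposite directions. Hoxb4 was called lower with library totals and with both limma fits on RPKM, and Hoxb2 with the limma fit on log2(RPKM + 0.5).

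Genes with several listed transcripts held nearly the same reads in each. The Hoxa10 transcripts had 357, 368 and 178 or 354, 360 and 178 quadriceps counts, and those of Hoxa9 had 439, 420 and 296 or 430, 412 and 290. The counts therefore do not separate the isoforms.

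HOX proteins bind DNA with TALE homeodomain cofactors, the PBX, MEIS and PKNOX proteins. Of 8 tested cofactor genes 2 were higher and 5 lower in quadriceps, or 1 and 6 with library totals. For this list and those that follow, the shares of all tested transcripts are 32.2% higher and 34.4% lower, and library totals called 3240 higher and 15203 lower. Meis2 had 959, 882 and 841 counts in heart against 16, 12 and 9 in quadriceps, a log2 fold change of -5.14 ± 0.15 (SE; edgeR adjusted p = 7.03e-09). Meis1 fell by 2.19 on the log2 scale (edgeR adjusted p = 3.38e-06), whereas Pknox2 rose by 1.53 ± 0.11 (edgeR adjusted p = 1.86e-06). Pknox1 was 0.66 ± 0.15 higher (edgeR adjusted p = 0.00322) but -0.10 with library totals.

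Noncoding RNAs of the clusters were mostly at very low counts. Of 28 listed, 19 were in the table, 4 were tested and 3 were higher in quadriceps. Hotair, transcribed from HoxC between Hoxc11 and Hoxc12, had 0 counts in each heart library and 34, 28 and 18 in quadriceps (edgeR adjusted p = 1.69e-05). Mira, a HoxA noncoding RNA that lies within the span of the Hoxa7 model, so that reads of the 2 are uncertain, had 0, 2 and 2 against 48, 62 and 33, a log2 fold change of 6.02 ± 0.47 (edgeR adjusted p = 3.69e-06). Hoxaas2 rose by 3.75 ± 0.62 (edgeR adjusted p = 0.000508). Halr1, beyond the anterior end of HoxA, had 14, 19 and 10 against 11, 6 and 7 and was not called. Of the Evx and Cdx homeobox genes, relatives of the clusters and their upstream regulators, 0 of 5 reached the filter.

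**Figure D4:**
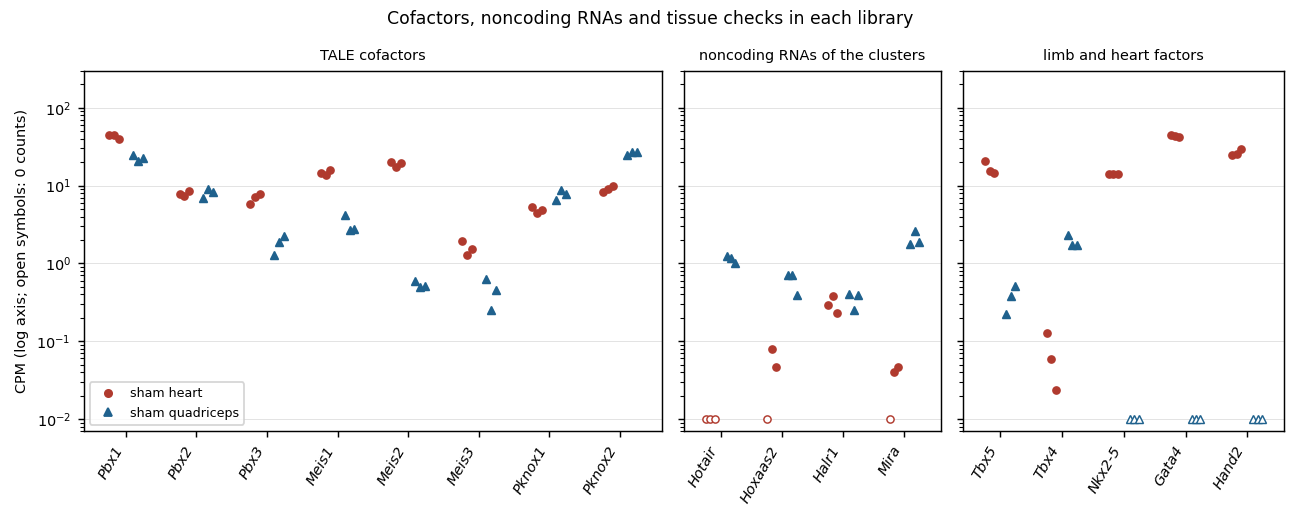
CPM (TMM scale, log axis) of tested TALE cofactors, noncoding RNAs of the Hox clusters and limb or heart transcription factors in 3 heart (circles) and 3 quadriceps (triangles) libraries. Open symbols mark 0 counts. Meis1 and Meis2 are lower in quadriceps, Hotair and Tbx4 are higher, and Gata4, Nkx2-5 and Hand2 are at 0 there.

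Genes listed as neighbours of the clusters moved in both directions. Next to HoxA 1 of 6 tested genes was higher and 1 lower, next to HoxB 2 of 4 and 1, next to HoxC 4 of 6 and 2, and next to HoxD 1 of 6 and 2. With library totals these became 1 and 4, 0 and 3, 0 and 3, and 1 and 4. Their medians were 0.09, 0.17, 0.51 and 0.17 on the log2 scale, and with library totals they were -0.66, -0.58, -0.25 and -0.57. Lnpk, which neighbours the posterior end of HoxD, rose by 2.45 ± 0.16 (edgeR adjusted p = 1.32e-06), and Snx10 near HoxA rose by 1.5 ± 0.14 (edgeR adjusted p = 1.16e-05). Jazf1 near HoxA fell by 2.76 (edgeR adjusted p = 0.000178), Atp5g1 near HoxB fell by 1.30 (edgeR adjusted p = 0.000158) and Atp5g3 near HoxD fell by 0.96 (edgeR adjusted p = 5.2e-05). Next to HoxC, Hnrnpa1 was at 0.88 and Atf7 at 0.75 but at 0.14 and -0.01 with library totals, and Cbx5 was at -0.64 and Calcoco1 at -0.50.

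Polycomb proteins keep Hox genes silent, and MLL and UTX complexes oppose them. Of 30 tested Polycomb genes 14 were higher and 9 lower, with a median of 0.22, against 32.2% and 34.4% of all tested transcripts, and with library totals 1 was higher and 18 lower. Pcgf2, a Polycomb complex subunit, had 146, 138 and 115 counts in heart against 21, 5 and 8 in quadriceps (log2 fold change -2.52 ± 0.32, edgeR adjusted p = 9.82e-05), and Phc2 fell by 2.01. Yaf2 rose by 1.14 and Pcgf1 by 0.98, which with library totals were 0.39 and 0.23. Of 16 MLL and UTX genes 5 were higher, a share near the 32.2% of all tested transcripts, and 1 was lower, or 1 and 13 with library totals. Mllt3, an elongation factor subunit, rose by 4.01 ± 0.16 (edgeR adjusted p = 4.23e-08) and Dpy30 by 0.87, or 0.12 with library totals, and Men1 fell by 0.91.

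Retinoic acid sets Hox boundaries in the embryo. Of 14 tested genes of its synthesis, breakdown and receptors 3 were higher and 6 lower, against 32.2% and 34.4% of all tested transcripts, or 2 and 10 with library totals. Aldh1a1, an enzyme of its synthesis, had 586, 621 and 520 counts in heart against 4414, 3472 and 2600 in quadriceps, a log2 fold change of 3.63 ± 0.10 (edgeR adjusted p = 5.83e-09), and the receptor gene Rxra rose by 1.2 ± 0.14. Cyp26b1, which breaks retinoic acid down, fell by 1.85 (edgeR adjusted p = 0.0141) and varied within heart, at 1107, 662 and 297 counts.

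The tested transcription factors of the limb and heart fields followed their tissue. Tbx4, the hindlimb factor, had 6, 3 and 1 counts in heart against 64, 41 and 30 in quadriceps, a log2 fold change of 4.70 ± 0.40 (edgeR adjusted p = 6.82e-06). Tbx5, which acts in heart and forelimb, had 986, 763 and 622 against 6, 9 and 9, a log2 fold change of -5.57 ± 0.26 (edgeR adjusted p = 1.41e-07). Gata4, Nkx2-5 and Hand2 were at 0 counts in each quadriceps library. Pitx1, another hindlimb factor, had 0 in heart and 4, 2 and 3 in quadriceps and was not tested. Isl1, also on this list, was at 0 counts in all 6 libraries, heart included.

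Markers of other cell types moved in different directions, between lists and within some of them. Satellite cell markers were higher for 6 of 6, with Pax7 at 0 in each heart library and at 18, 23 and 9 in quadriceps. With library totals 5 of 6 were higher, as Sdc4 went from 0.57 to -0.19, and without quadriceps 1 the 5 tested were higher. Fibroblast markers were lower for 5 of 9 and higher for 0, with 9 of 9 lower with library totals or without quadriceps 1, and their summed CPM was 672 to 772 in heart and 470 to 669 in quadriceps. Tcf21, a cardiac fibroblast factor, was at 215, 247 and 166 counts in heart and 0 in quadriceps. Endothelial markers were lower for 7 of 7, smooth muscle and pericyte markers were higher for 1 and lower for 4 of 8, and leukocyte markers were lower for 4 of 6. Schwann cell markers were higher for 2 and lower for 1 of 6, and chondrocyte, bone and tendon markers were higher for 2 and lower for 1 of 4. The atrial gene Myl7 had 2075, 164 and 3 counts in heart 1, 2 and 3. Which cells carried the Hox transcripts was not tested, and the part of each cell type in the differences was not tested.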

How the data were processed

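RNA was isolated 12 weeks after sham or TAC surgery. Per the study's methods, poly(A) RNA libraries were made with a ScriptSeq kit, sequenced as single 50-base reads, trimmed with Trim Galore, aligned to mm10 with STAR and counted with Rsubread. The strand setting and the treatment of shared reads are not given in the sources used here. The authors deposited raw counts per RefSeq transcript and RPKM values, which equal the counts divided by transcript length and library total. The authors' test columns (fold changes, F, p and FDR) were not used, and 6 columns of per-sample RPKM in the TAC table were not used. The sham quadriceps counts of the 587 transcripts in that table equal those of the table used here.

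The test covered the 24280 transcripts that exceeded 5 counts in 2 or more of the 6 libraries, and was run with edgeR 4.0.16 (TMM, quasi-likelihood, R 4.3.3) and Benjamini-Hochberg adjustment. The script was tested on simulated data, where false calls among the calls exceeded the nominal share, and its pass criterion was changed after a first failure to the share of null p-values under 0.05, so adjusted p-values near the threshold should be read with care. DESeq2 1.42.0, limma 3.58.1 on log2(RPKM + 0.5) and log2(RPKM + 0.1), other scalings, other filters, a replicate block and leaving out each library were alternatives. Each gene was read from its transcript with the highest summed count. Coordinates and exon overlaps came from the GENCODE vM21 annotation of GRCm38, and upstream sequences from RefSeq.

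Values per library were given for the 4 most counted genes of each cluster, the 6 largest rises and falls, genes at most at 3 counts in 1 tissue and above 5 in the other, and paralogs called in opposite directions. For other lists, the 2 largest rises and falls were named. Genes outside this rule were chosen after their values were seen. The members and lists were chosen with earlier results of these data known. No pair of libraries of a group was a duplicate (chi-square of 7.4 to 59.6 for each degree of freedom). Results for some listed genes are not reported here.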

Additional observations from a re-analysis of the deposited data

How the results depend on the processing

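Of 27 tested Hox genes, 25 were higher. The count was 23 to 25 of 27 with DESeq2, other scalings, both limma fits and the study's own fold criterion. It was 29 of 32 with no filter and 26 of 28 with counts summed per gene. Requiring 10 or more counts in all 6 libraries kept 5 Hox genes, of which 3 were higher, since it removes genes near 0 in heart. Hox genes called lower numbered 0, but 1 with library totals, 2 with limma on log2(RPKM + 0.5) and 1 with limma on log2(RPKM + 0.1). Of 24280 tested transcripts, 7828 were called higher and 8354 lower. These became 3240 and 15203 with library totals, and 3201 and 15319 or 3218 and 15365 with limma. The library-total and limma fits left out TMM scaling, since RPKM rests on library totals. What else moved the limma counts was not tested. By the study's criterion, which demands a larger fold, 1699 transcripts (7.0%) were higher and 2097 lower. Leaving out 1 library gave 22 to 25 Hox genes higher, 0 lower, 6987 to 8146 transcripts higher and 7409 to 8357 lower. Hoxa11, Hoxb8 and Hoxd3 dropped below the filter in some of these fits. Hoxb2 reversed to -0.59 with library totals, -0.25 and -0.49 with limma (pseudocounts 0.5 and 0.1) and -0.02 without quadriceps 1, and Hoxb4 to 0.02 without quadriceps 1. Leaving out each library, Hoxb2 ranged from -0.02 to 0.34 and Hoxb4 from -0.21 to 0.02. Over 20 named genes and 15 settings, 272 values kept direction and call, 3 lost the call (Hoxb3), 3 gained one (Hoxb4) and 5 reversed. In the remaining combinations the gene was not tested. Most of these were under the filter of 10 counts in all 6 libraries, and the others were Hoxd3 without quadriceps 1 or without quadriceps 2. Hoxb5, outside these 20, lost its call with DESeq2, library totals, both limma fits and 4 of the fits without 1 library.

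With the replicate number as a block, 25 Hox genes were higher and 0 lower, and 7541 and 8175 transcripts were. Deviations from the group mean correlated at 0.0234, -0.0969 and -0.00928 for same-numbered libraries, and at -0.0541 to 0.0725 for other pairs. With 3 libraries per tissue, such values cannot show whether same-numbered samples came from the same animal.

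Depth limits the low genes: 12 of the 39 were not tested, and 3 counts correspond to 0.0213 CPM over the heart libraries and 0.0436 CPM over the quadriceps libraries.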
